A study of Homo sapiens with 6 samples.

Results

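The LSM ring proteins are small RNA-binding proteins with an Sm-like fold, and the mRNAs of 10 of them, LSM1 to LSM8, LSM10 and LSM11, are described here after silencing of LOC550643 in HEK293T cells. They were taken by gene symbol, with earlier results of these data known, and are 10 of the 26391 gene rows of the deposited table. HEK293T derives from human embryonic kidney cells and makes the large T antigen of SV40. The groups were 3 libraries of cells transfected with a pool of 4 siRNAs against LOC550643 and 3 libraries of cells transfected with a non-silencing control siRNA, both at 50% confluency, with RNA taken 48 hours later. All cells were of the same line, and no other agent or genotype separates the groups in the labels. With only 1 pool and 1 control siRNA, effects of silencing and off-target effects of an siRNA cannot be told apart. Whether the replicates were grown separately over time is not stated, and p-values thus cover only how far these 6 libraries scatter, possibly for technical reasons.

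LSM proteins assemble into rings of 7, and the rings of LSM1 to LSM7 and of LSM2 to LSM8 hold the 3′ ends of RNAs. The ring of LSM1 to LSM7 is cytoplasmic: together with PATL1 it binds deadenylated mRNAs and promotes removal of their cap, and it gathers in P-bodies with the decapping scaffold EDC4, the protein that the LOC550643 polypeptide binds according to the series' design text. In the ring of LSM2 to LSM8, LSM8 takes the place of LSM1; that ring is nuclear and binds the uridine-rich 3′ end of U6, the small nuclear RNA at the catalytic centre of the spliceosome. LSM10 and LSM11 replace a pair of Sm proteins in the ring of the U7 particle, which cleaves the 3′ ends of replication-dependent histone mRNAs. The comparison asks whether steady-state levels of these mRNAs differ when LOC550643 is silenced.

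Read pairs assigned to the gene rows were 35249993, 30739321 and 8604236 with the LOC550643 siRNA pool and 32309964, 33421162 and 36082404 with the control siRNA. They were inferred by halving the reads recovered from the deposited values, so they are approximate and leave out reads outside these rows. LOC550643 siRNA replicate 3 was the shallowest. The target, listed as LINC01420, stood at 5.85, 5.96 and 5.42 CPM (reads relative to library size, after TMM scaling between libraries) with the pool, against 56.1, 50.7 and 51.8 CPM with the control siRNA. The control libraries did not lie equally close: chi-square per degree of freedom was 29.5 and 39.3 between control replicate 2 and control replicates 1 and 3, and 9.03 between control replicates 1 and 3 themselves. Markers of the line were in place, with 8 of 8 HEK293 markers at or over 1 CPM and a summed level of 1286 to 1420 CPM with the pool and 1175 to 1279 CPM with the control siRNA. Of other cell types, 1 of 5 fibroblast markers was at or over 1 CPM, COL1A1 at 63.7 CPM with the pool and 64.7 CPM with the control siRNA. Of hepatocyte markers 0 of 3 reached that level, and of basal epithelium markers 0 of 3. Of 4 leukocyte markers, PTPRC was at 0.00 CPM with the pool and 0.0094 CPM with the control siRNA. In the same order CD3E was at 0.00 and 0.0090 CPM and CD14 at 0.43 and 0.20 CPM. The result of the other leukocyte marker is not reported here.

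None of the 10 LSM mRNAs passed the test. With limma on log2(value + 1 deposited unit), 0 of 10 had an adjusted p under 0.05, where 35.6% of the 16253 genes tested did, 17.5% higher and 18.1% lower. Among the 8129 genes whose mean level fell within the members' own range, 22.6 to 192.5 CPM, 40.7% were called. At an unadjusted p under 0.05 there was 1 of 10, LSM1, against 45.8% of all genes tested. edgeR and DESeq2 on recovered reads also called 0 of 10. By the authors' deposited table, no member (0 of 10) had an adjusted p under 0.05, where 19.8% of all rows did, and the lowest adjusted p of a member was 0.167. Those 26391 rows include 4787 at 0 in all libraries, so 19.8% and 35.6% are shares of unlike sets of genes. A positive fold change means a higher level with the LOC550643 siRNA pool. In bulk RNA less RNA per cell cannot be told apart from fewer cells that express a gene.

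The 10 genes are spread over 8 chromosomes, and the deposited table gives their positions in hg19. The shared ring subunits are LSM2 on chromosome 6 (31765169 to 31774761, minus strand), LSM3 on chromosome 3 (14220228 to 14239869, plus), LSM4 on chromosome 19 (18417040 to 18434001, minus), LSM5 on chromosome 7 (32524945 to 32530475, minus), LSM6 on chromosome 4 (147096835 to 147111213, plus) and LSM7 on chromosome 19 (2321520 to 2328614, minus). LSM8 lies on chromosome 7 (117824086 to 117844093, plus), LSM10 on chromosome 1 (36859021 to 36863560, minus), and LSM11 on chromosome 5 (157170703 to 157187717, plus), while LSM1 lies on a further chromosome, on the minus strand. Reads were summed over the exons of each row's transcript, so UTR and coding reads are not separated. LSM2 is listed at 6 genome positions, so its reads may have been shared among copies, and the other 9 are listed at 1. The GRCh37 annotation also holds pseudogenes of LSM3 (4), LSM1 (2) and LSM6 (1), which have no row of their own in the table, and how the reads of such copies were assigned is not given in the sources used here.

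Upstream sequences are shown for LSM4 and LSM8, which with LSM1 are the members whose groups did not overlap, although neither was called, and for the stretch between the starts of LSM3 and XPC, a shared upstream region of an uncalled and a called gene. No test ties these sequences to a result. They are from RefSeq (GRCh38.p14), 5′ to 3′ along the LSM gene, with capitals for the GC box GGGCGG, the CCAAT box CCAAT and the ETS core CCGGAAG on either strand; adjoining GC boxes run together.
LSM4, chr19:18323077-18323326, minus strand: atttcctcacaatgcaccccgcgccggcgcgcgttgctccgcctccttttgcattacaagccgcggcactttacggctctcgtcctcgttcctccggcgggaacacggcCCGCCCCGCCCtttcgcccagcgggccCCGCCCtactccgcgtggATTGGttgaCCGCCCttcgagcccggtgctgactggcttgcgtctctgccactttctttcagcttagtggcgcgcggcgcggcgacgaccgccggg
LSM8, chr7:118183914-118184163, plus strand: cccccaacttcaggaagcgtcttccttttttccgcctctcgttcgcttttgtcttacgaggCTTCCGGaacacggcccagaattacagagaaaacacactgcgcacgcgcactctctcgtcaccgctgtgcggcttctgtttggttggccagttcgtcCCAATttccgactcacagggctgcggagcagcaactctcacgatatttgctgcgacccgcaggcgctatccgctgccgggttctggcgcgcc
LSM3 to XPC, chr3:14178602-14178816, plus strand: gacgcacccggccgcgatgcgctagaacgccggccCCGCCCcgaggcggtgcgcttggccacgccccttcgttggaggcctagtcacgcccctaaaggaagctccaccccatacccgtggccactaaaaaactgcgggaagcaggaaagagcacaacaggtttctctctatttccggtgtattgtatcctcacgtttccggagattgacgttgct

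The LSM4 window holds 4 GC boxes and 1 CCAAT box, the LSM8 window 0 GC boxes, 1 CCAAT box and 1 ETS core, and the stretch between LSM3 and XPC 1 GC box in 215 bases. The RefSeq table had 9 upstream windows of 250 bases for 8 of the 10 members, LSM5 having a pair. Of these 9, 6 held a GC box, as did 42.6% of the 35116 windows in the table. A CCAAT box was in 4 (32% of all windows), an ETS core in 2 (8.52%) and the TATA box TATAAA in 0 (10.7%). Each motif was searched on both strands, and a match is a description of these letters only. Median GC content was 59.2% in the 9 windows and 58.0% in all.

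**Figure D1:**
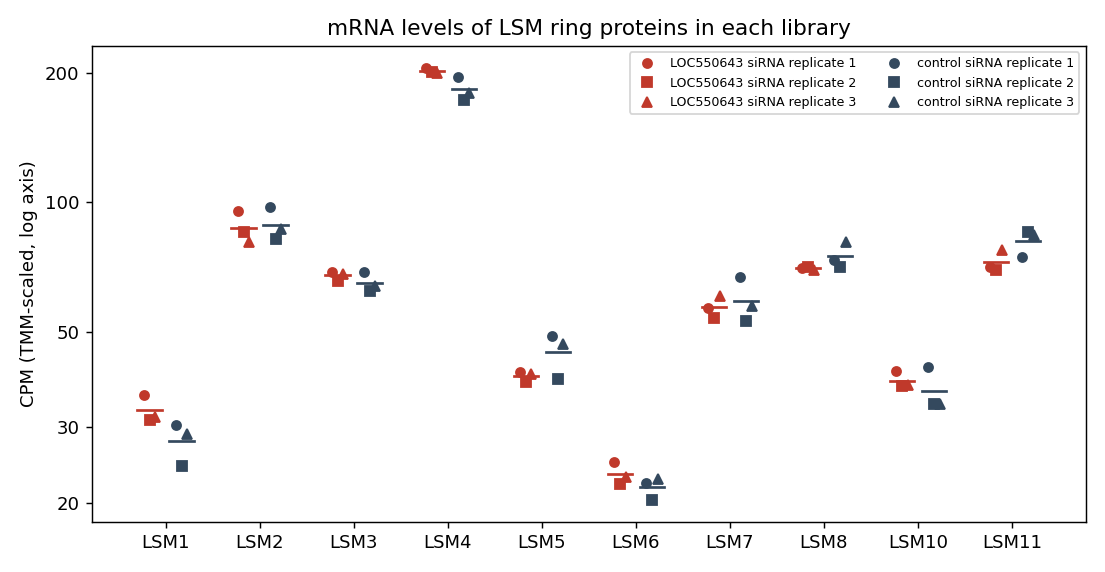
Level of each LSM mRNA in CPM (log axis) in the 3 LOC550643 siRNA libraries (red, left) and the 3 control siRNA libraries (dark blue, right); symbols mark replicate numbers and lines the group means. The points of the groups interleave for 7 of 10 genes, and control replicate 2 (square) is the lowest control library for 9 of 10.

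LSM1, the subunit found only in the cytoplasmic ring, had the largest difference of the 10. It stood at 35.7, 31.2 and 31.6 CPM with the LOC550643 siRNA pool, against 30.4, 24.4 and 28.9 CPM with the control siRNA. All 3 pool libraries were above all 3 control libraries, the lowest pool library (31.2 CPM) being close to the highest control library (30.4 CPM), and in the deposited values before TMM scaling the groups overlapped. The means were 32.8 ± 2.48 and 27.9 ± 3.12 CPM (SD, n = 3 each), a log2 fold change of 0.24 (SE 0.098, 95% interval 0.02 to 0.45, limma adjusted p = 0.0787). The difference is 1.18-fold and passed the threshold in 1 of 20 alternative settings, that with trends in transcript length removed (log2 0.26, limma adjusted p = 0.0148), which was chosen after the data were seen. LSM1 shares 143 bases at its 5′ end with BAG4, a cochaperone of HSP70, on the opposite strand, and the counting command shows no strand option.

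LSM8, which replaces LSM1 in the nuclear ring, had a difference of the opposite sign. Its levels were 70.4, 70.7 and 69.5 CPM with the pool, against 73.2, 70.8 and 80.9 CPM with the control siRNA. The pool libraries were all lower, by less than 0.1 CPM at the nearest pair, and the largest gap was to control replicate 3. The log2 fold change was -0.09 (SE 0.071, 95% interval -0.25 to 0.06, limma adjusted p = 0.341). With trends in transcript length removed it was 0.09 and did not pass (adjusted p = 0.683). Its row has the longest transcript of the 10, at 12514 bases.

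The balance between the subunits that tell the rings apart was taken as the ratio of LSM1 to LSM8 within each library, which does not depend on the scaling between libraries. In CPM the ratio was 0.507, 0.441 and 0.455 with the pool, against 0.415, 0.344 and 0.357 with the control siRNA. Each pool library lay above each control library, and replicate 1 was the highest in both groups. The mean log2 ratio was -1.10 ± 0.106 with the pool and -1.43 ± 0.143 with the control siRNA (SD, n = 3 each). It differed by 0.33 (1.26-fold, exact permutation test, two-sided, p = 0.1, the smallest p that 3 against 3 allows). The difference ran from 0.27 to 0.41 when 1 library was left out, and it was 0.17 (exact permutation p = 0.7) with trends in transcript length removed.

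**Figure D2:**
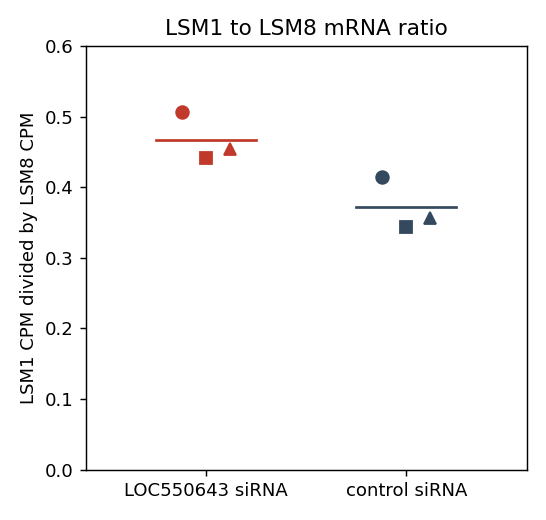
Ratio of LSM1 to LSM8 mRNA, both in CPM, in each LOC550643 siRNA library (left) and each control siRNA library (right), with lines at the group means. The 3 pool libraries lie between 0.441 and 0.507 and the 3 control libraries between 0.344 and 0.415.

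The 6 subunits that both rings share had log2 fold changes between -0.18 and 0.15, 3 positive and 3 negative. LSM4, which carries an arginine-rich tail methylated by PRMT5, was the most abundant in CPM, at 205.7, 201.3 and 199.7 with the pool, against 195.4, 173.3 and 179.9 with the control siRNA. Its groups did not overlap after TMM scaling and overlapped in the deposited values. The log2 fold change was 0.15 (SE 0.069, 95% interval -0.005 to 0.30, limma adjusted p = 0.12), and it passed only with trends in transcript length removed (adjusted p = 0.0479).

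LSM5 was at 40.2, 38.1 and 39.9 CPM with the pool, against 48.9, 38.8 and 46.9 CPM with the control siRNA. Control replicate 2 lay among the pool libraries and the other control libraries above all of them. The log2 fold change was -0.18 (SE 0.092, 95% interval -0.38 to 0.02, limma adjusted p = 0.147). Its call depended on the setting. Without control replicate 2 LSM5 was called lower, at -0.29 (limma adjusted p = 0.0124), likewise with LOC550643 siRNA replicate 3 left out beside that library (-0.29, adjusted p = 0.0167). With all libraries kept and scaled by library totals alone, LSM5 was also called lower (-0.26, adjusted p = 0.046).

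The remaining shared subunits differed least. LSM6, the least abundant of the 10 in CPM, lay between 22.1 and 24.9 CPM with the pool and between 20.3 and 22.7 CPM with the control siRNA (log2 0.10, 95% interval -0.09 to 0.29, limma adjusted p = 0.385). LSM3 lay between 65.6 and 68.9 CPM and between 62.1 and 68.7 CPM in the same order of groups (log2 0.06, interval -0.09 to 0.21, limma adjusted p = 0.529). In all of these genes the ranges of the groups overlapped. LSM7 lay between 53.7 and 60.4 CPM with the pool and 52.9 and 66.9 CPM with the control siRNA (log2 -0.04, interval -0.25 to 0.16, limma adjusted p = 0.734). LSM2 lay between 81.0 and 95.4 CPM with the pool and 82.3 and 97.3 CPM with the control siRNA (log2 -0.02, interval -0.21 to 0.16, limma adjusted p = 0.848). The sign of LSM3 turned with library totals (-0.02), those of LSM2 and LSM7 turned without control replicate 1 and with trends in length removed, and that of LSM2 also without LOC550643 siRNA replicate 3.

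The U7 subunits stood apart from each other in sign, and neither passed. LSM11, which binds the U7 partners CASP8AP2 and ZNF473, was at 70.7, 69.4 and 77.6 CPM with the pool, against 74.6, 85.1 and 84.0 CPM with the control siRNA. LOC550643 siRNA replicate 3 lay above control replicate 1, so the groups overlapped, although in the deposited values all pool libraries were lower. The log2 fold change was -0.16 (SE 0.078, 95% interval -0.33 to 0.008, limma adjusted p = 0.126); with library totals alone it was -0.24 and was called (adjusted p = 0.0334). LSM10 was at 40.4, 37.3 and 37.6 CPM with the pool and 41.4, 34.0 and 34.0 CPM with the control siRNA (log2 0.08, 95% interval -0.12 to 0.28, limma adjusted p = 0.516).

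**Figure D3:**
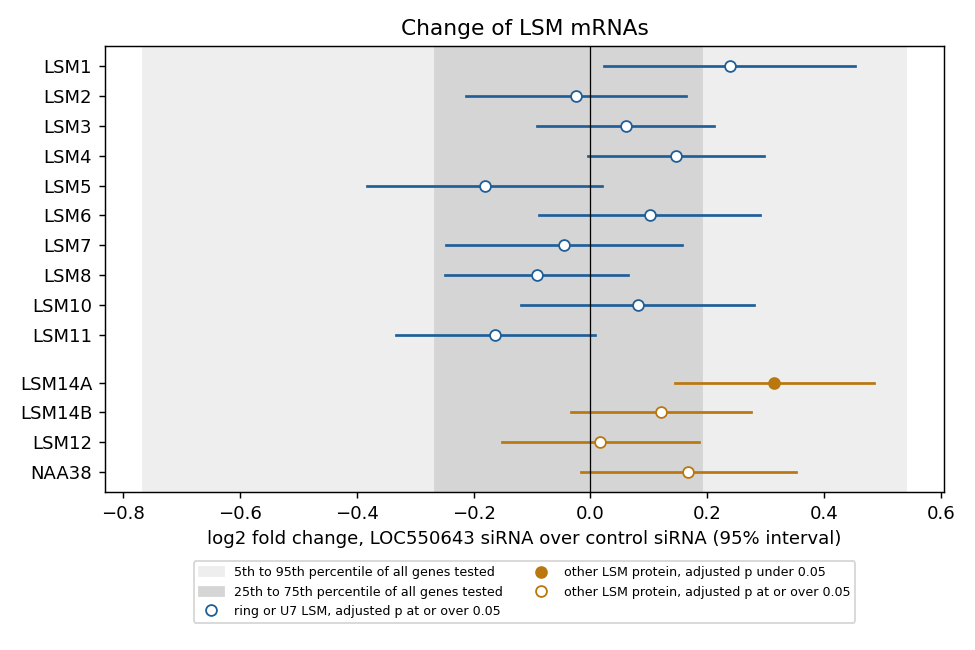
Log2 fold change, LOC550643 siRNA over control siRNA, with its 95% interval from limma for the 10 LSM genes and 4 other LSM proteins; grey bands span the 5th to 95th and 25th to 75th percentiles of all genes tested. All 10 ring and U7 genes lie between -0.18 and 0.24 with open symbols, and LSM14A alone is filled.

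Read together as a description, the 10 intervals reached from 0.767-fold to 1.37-fold, so at this precision a larger change of any of the 10 lies outside its 95% interval, while smaller ones may not pass the test. The median log2 fold change was 0.02 in the 10 and -0.02 in all genes tested, and 5 were positive and 5 negative. The median absolute log2 fold change was 0.10 in the 10, 0.19 in genes of their range of levels and 0.23 in all genes tested. The groups did not overlap at 3 of 10 members (LSM1, LSM4 and LSM8), where 48.6% of all genes tested had groups that did not overlap. In the deposited values the members with no overlap were LSM5, LSM8 and LSM11, all lower with the pool. On that scale 49.7% of all genes tested did not overlap, 17.4% higher and 32.4% lower, so 3 of 10 lower is near the share of all genes. Standard errors of the members were 0.069 to 0.098, and only that of LSM1 was above the median of 0.094 for all genes tested. The shallowest library still gave the members 193 to 1677 read pairs each, against 658 to 7100 in the other libraries.

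The members also differed between libraries of the same group. Replicate 1 was the highest pool library for 7 of 10 members and the highest control library for 7 of 10. Of all genes tested, 31.3% and 29.2% were highest there. Of the 10 members, 9 were lowest in control replicate 2 among the control libraries, the exception being LSM11; 39.9% of all genes tested were lowest there. Relative to the mean of control replicates 1 and 3, control replicate 2 was at a median log2 difference of -0.15 over the 10 members, from -0.31 for LSM5 to 0.10 for LSM11. The pattern went with the length of the listed transcript across all genes: 54.1% of the 1371 genes with transcripts under 1000 bases and 58.6% of the 3345 from 1000 to 2000 bases were lowest in control replicate 2, against 15.2% of the 5115 genes of 4000 bases or more. All 5 members with transcripts under 1000 bases were lowest there, and LSM11, of 6578 bases, was not. LSM8 went against the pattern, with the longest transcript (12514 bases) and a log2 difference of -0.12, and LSM5, of 2992 bases, had the largest drop. The part of this length pattern in single members was not tested beyond the fit with length trends removed.

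**Figure D4:**
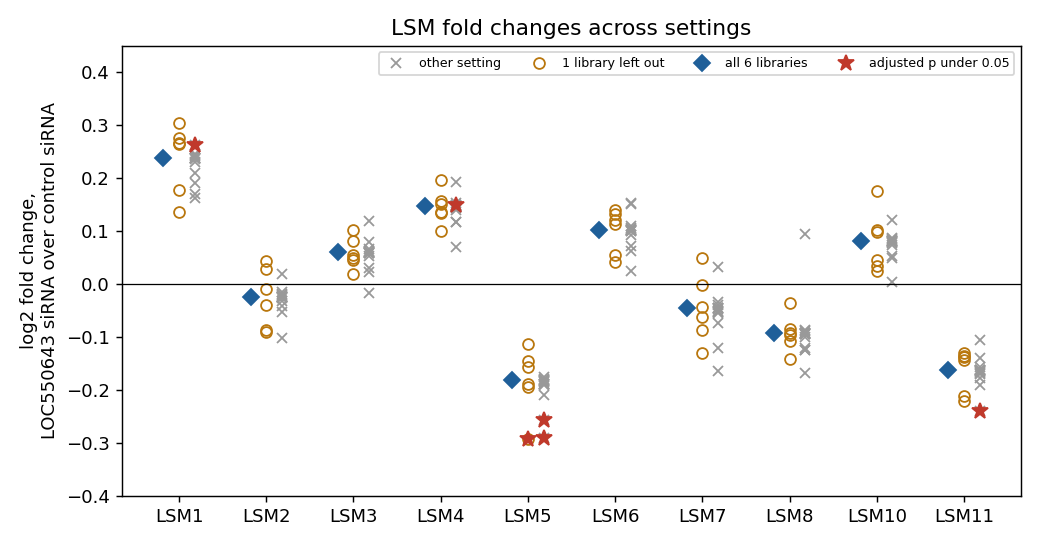
Log2 fold change of each LSM gene with all 6 libraries (blue diamonds), with 1 library left out (open circles) and in other settings (grey crosses); red stars mark an adjusted p under 0.05. Stars appear for LSM1 and LSM4 above 0 and for LSM5 and LSM11 below 0, and none of these 4 passed with all 6 libraries in the main setting.

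Levels can be set side by side only per length of the listed transcript, and on that scale the members fell into bands. The top 4, LSM7, LSM4, LSM2 and LSM3, averaged 112.9, 105.9, 100.8 and 96.1 CPM per kilobase over the 6 libraries, and neighbours in this order overlapped in range. LSM10 followed at 40.6 CPM per kilobase, below every library of LSM3 and above every library of LSM6, at 28.9. LSM6 overlapped LSM1, at 26.3. LSM5 at 14.1 and LSM11 at 11.7 CPM per kilobase overlapped each other, and LSM8, at 5.80, lay below every library of LSM11. These values depend on the transcript the table lists: the length of LSM3 is given as 689 bases and that of LSM6 as 781, where the canonical transcripts of the GRCh37 annotation have 3359 and 2226, and the LSM5 row is a noncoding transcript of 2992 bases, against 2214.

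Other proteins with an LSM domain do not belong to the rings. LSM14A, a P-body protein that binds the helicase DDX6, rose, at 198.3, 215.8 and 212.0 CPM with the pool, against 164.6, 155.7 and 184.0 CPM with the control siRNA. Every pool library was above every control library. The log2 fold change was 0.31 (SE 0.078, 95% interval 0.14 to 0.49, limma adjusted p = 0.0087). It was called in each alternative run, with log2 values from 0.24 to 0.38 and an adjusted p of at most 0.0419. Its paralog LSM14B stood at a log2 difference of 0.12 (limma adjusted p = 0.202), LSM12, a partner of ataxin-2, 0.02 (adjusted p = 0.886) and NAA38, a subunit of the NatC acetyltransferase, 0.17 (adjusted p = 0.141). NAA38 was called without control replicate 1 (0.26, limma adjusted p = 0.0351) and with length trends removed (0.20, adjusted p = 0.027), and LSM12 changed sign between settings. NAA38 is also an older name of LSM8; here it is the row of NM_032356, earlier LSMD1, and it shares 109 bases with CYB5D1 on the opposite strand.

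The Sm core proteins form the related ring on the other spliceosomal RNAs. Of 7 tested, 1 was lower and none (0) higher (14.3% called, against 35.6% of all genes tested, 18.1% being lower), with a median log2 fold change of -0.08, and SNRPN was below the filter on low values. SNRPB, the Sm protein B, fell, at 289.5, 262.2 and 253.6 CPM with the pool, against 366.8, 293.8 and 362.0 CPM with the control siRNA. The log2 fold change was -0.34 (limma adjusted p = 0.0162), and 4 libraries decided the call: it was lost on leaving out LOC550643 siRNA replicate 2 or 3 (adjusted p = 0.0624 and 0.0698) or control replicate 1 or 3 (0.0799 and 0.0603). SNRPG, at -0.37, did not pass (adjusted p = 0.077) with all libraries and passed without control replicate 2 (0.0183), with LOC550643 siRNA replicate 3 left out as well (0.0242), without LOC550643 siRNA replicate 1 (0.0193), with library totals (0.044), with length trends removed (0.0463) and in the fit that blocks on replicate number (0.00795). SNRPD3 was at 0.18 (adjusted p = 0.0709), with a call without LOC550643 siRNA replicate 1 (0.0388) and with length trends removed (0.0393), and SNRPF at -0.16 (adjusted p = 0.184), with a call without control replicate 2 (0.0189), also with LOC550643 siRNA replicate 3 left out (0.0237). SNRPB holds SNORD119, of 96 bases, on its own strand.

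Of 10 partners of the cytoplasmic ring in decapping, 3 rose, 1 fell and the other 6 missed the threshold. The share called, 40%, was near that of all genes tested (35.6%) and of genes in the members' range of levels (40.7%), and the median was log2 0.01 beside -0.02 for all genes. PATL1, the protein that holds the LSM1 to LSM7 ring to the decapping enzyme, was at 98.3, 108.3 and 110.3 CPM with the pool, against 69.5, 76.8 and 79.3 CPM with the control siRNA, with no overlap (log2 0.49, SE 0.077, limma adjusted p = 0.000609). EDC3, an enhancer of decapping, rose by log2 0.65 (limma adjusted p = 4.2e-05). The decapping enzyme DCP2 rose by log2 0.40 (adjusted p = 0.0196) and its activator DCP1A fell by 0.22 on the log2 scale (adjusted p = 0.0318), but both calls were lost with some libraries left out: DCP2 without LOC550643 siRNA replicate 3 or control replicate 1 or 3 (0.0866, 0.0831 and 0.0656) and with library totals (0.0548), and DCP1A without LOC550643 siRNA replicate 1 or 2 or control replicate 2 or 3 (0.0768, 0.102, 0.074 and 0.0666) with control replicate 2 and LOC550643 siRNA replicate 3 both dropped (0.0761) and with libraries thinned to the shallowest (0.0748). DCP2 shares 97 bases with MCC on the opposite strand.

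Among partners of the nuclear ring, in the U6 particle and the larger tri-snRNP that carries U6 into the spliceosome, 7 of 18 rose and 3 fell, while the other 8 missed the threshold (median log2 0.14). That is 55.6% called, where 35.6% of all genes tested were, 17.5% higher and 18.1% lower. Of genes in the members' range of levels 40.7% were called, and the list was not tested against other genes. SART1, a tri-snRNP protein, was at 101.6, 109.6 and 97.1 CPM with the pool, against 59.5, 58.6 and 60.6 CPM with the control siRNA, the largest rise in the list (log2 0.79, SE 0.07, limma adjusted p = 1.8e-05). PRPF3, which binds U4 and U6, rose by log2 0.43 and LARP7, which binds 7SK and U6 RNA, by 0.50 (limma adjusted p = 0.000569 and 0.0019). USB1, the exonuclease that trims the U6 end to which the LSM2 to LSM8 ring binds, lay between 42.3 and 44.95 CPM with the pool and between 57.1 and 63.7 CPM with the control siRNA (log2 -0.44, limma adjusted p = 0.000918). Each of these 4 was called in every alternative setting run, an adjusted p under 0.01 included. LARP7 overlaps ZGRF1 and 5 microRNA genes on the opposite strand.

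Partners of LSM10 and LSM11 in histone mRNA processing had 4 of 9 higher, 0 lower and 5 that did not pass (median log2 0.12). The share called, 44.4%, was near the 40.7% of genes in the members' range of levels, against 35.6% of all genes tested. ZNF473, which joins LSM11 to the histone hairpin-binding protein SLBP, was at 48.6, 50.1 and 51.3 CPM with the pool, against 36.9, 37.4 and 41.2 CPM with the control siRNA (log2 0.38, limma adjusted p = 0.00227). CPSF2 and SYMPK, parts of the cleavage factor, rose by log2 0.43 and 0.31, and SLBP by 0.31 (limma adjusted p = 0.00255, 0.00668 and 0.00533). The groups did not overlap at any of these 4, as they did not at 48.6% of all genes tested. These 4 were named for the lowest p in the list, so their lack of overlap adds no separate evidence.

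Of 13 factors that build Sm and LSM rings, 3 were higher, 5 were lower and 5 did not pass (median log2 0.003). That is 61.5% called beside 35.6% of all genes tested, which also went in both directions (17.5% higher, 18.1% lower). Of genes in the members' range of levels 40.7% were called, and this list too was not tested against other genes. PRMT5, the methyltransferase that modifies Sm proteins and the tail of LSM4, was at 104.3, 109.7 and 96.8 CPM with the pool, against 168.6, 160.0 and 172.0 CPM with the control siRNA. Its fall was the largest in these lists (log2 -0.69, SE 0.071, limma adjusted p = 4.46e-05), and PRMT5 overlaps PRMT5-AS1 by 2897 bases on the opposite strand. WDR77, its partner in the methylosome, was at 70.3, 66.6 and 71.9 CPM with the pool, against 92.2, 90.0 and 97.6 CPM with the control siRNA (log2 -0.42, limma adjusted p = 0.000736), and it shares 88 bases with ATP5F1 on the opposite strand. STRAP, a protein of the SMN complex, rose by log2 0.36 and GEMIN5, which recognises small nuclear RNAs for that complex, by 0.28 (limma adjusted p = 0.0045 and 0.0122); the call of GEMIN5 was lost without LOC550643 siRNA replicate 2 or control replicate 1 (0.0583 and 0.0598). SMN1 and SMN2 are near-identical copies, and their rows, each listed at 2 positions, cannot be told apart.

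**Figure D5:**
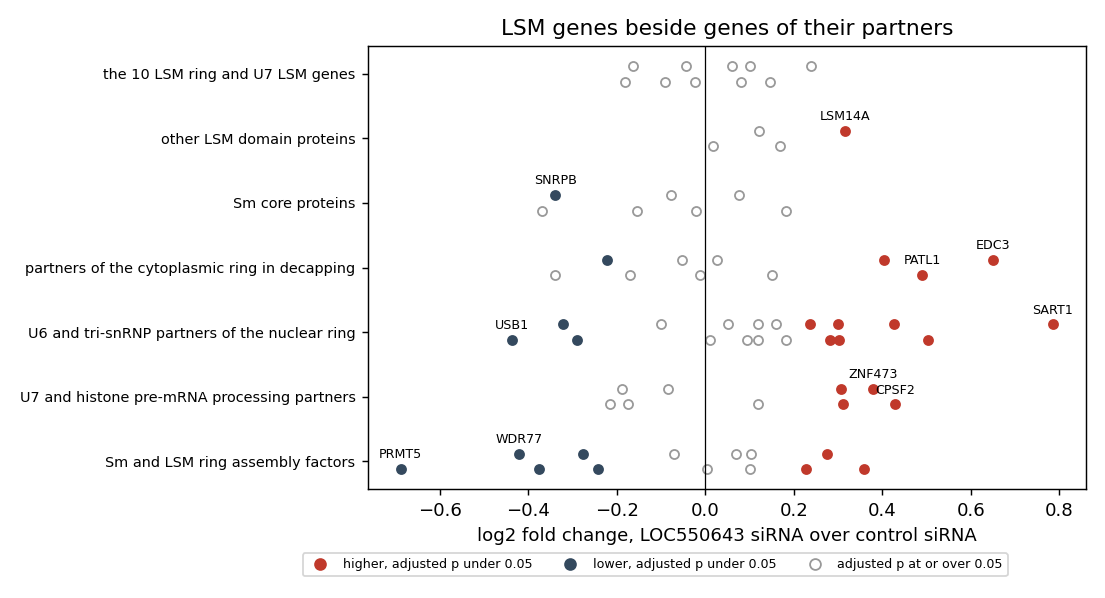
Log2 fold change, LOC550643 siRNA over control siRNA, of each tested gene in the LSM group and in 6 lists of related or partner genes; filled symbols have a limma adjusted p under 0.05. The 10 LSM genes are all open, while 18 of the 61 other genes are filled above 0, up to SART1 at 0.79, and 10 below 0, down to PRMT5 at -0.69, which is 45.9% called beside 35.6% of all genes tested and 40.7% of those in the LSM genes' range of levels.

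At the loci of LSM3 and LSM7 the neighbouring gene on the opposite strand starts close by and did change. XPC, a DNA damage recognition factor, starts 56 bases from LSM3 in the hg19 rows, where the RefSeq starts used for the printed sequence have 215 bases between them. XPC was at 94.7, 111.3 and 101.8 CPM with the pool, against 61.5, 61.6 and 66.3 CPM with the control siRNA (log2 0.70, limma adjusted p = 6.84e-05). LSM3 was at log2 0.06 in the same libraries. The difference between the genes, XPC over LSM3, was 0.64 on the log2 scale and had the same sign in every pairing of a pool with a control library (exact permutation p = 0.1, adjusted p = 0.1 over 3 gene pairs). SPPL2B, an intramembrane protease, starts 15 bases from LSM7 and was at 62.2, 55.9 and 49.9 CPM with the pool, against 75.5, 77.8 and 68.5 CPM with the control siRNA (log2 -0.40, limma adjusted p = 0.0049). Over LSM7 it differed by -0.36, and BAG4, which itself did not pass (log2 -0.12, limma adjusted p = 0.248), over LSM1 by -0.36 (exact permutation p = 0.1 and adjusted p = 0.1 for both). XPC and SPPL2B met a limit of 1000 bases between starts, and BAG4 was taken for its overlap with LSM1. All 3 pairs were added after their values were seen. An exact permutation p of 0.1 is the smallest that the design allows, so the adjusted p could not be lower.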

How the data were processed

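RNA with a poly-A tail from 6 HEK293T samples was sequenced as 75-base read pairs from libraries made with dUTP in the second strand, per the labels' protocols. The submitters' processing notes name STAR 2.4.0, HOMER and edgeR, with hg19. Exon reads were summed with HOMER to 1 row per gene and each library was scaled by the authors, per the file headers, so the deposited signal values are scaled coverage in reads and not raw counts, and 100% of them came out as whole multiples of 1 read within 0.1 step. The authors' log2 fold change, p-value and adjusted p-value per gene are in the same deposited table, and the deposited log2 fold changes run LOC550643 siRNA over control siRNA.

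From these values, libraries were scaled with TMM (edgeR 4.0.16, R 4.3.3), genes with at least 10 read pairs in enough libraries were kept by edgeR's filter, and log2(value + 1 unit), about 0.034 CPM, was tested with limma 3.58.1 over 16253 genes with Benjamini-Hochberg adjustment at 0.05, so that fold changes of low genes are understated. Only the 2 groups entered the fit, with no covariates. The floor that 3 read pairs set is 2.44 to 10.25 units per library, and intervals cover the spread between samples only. Alternatives were edgeR and DESeq2 1.42.0 on recovered reads, other scalings, filters and pseudocounts, thinning, a replicate block and each library left out. Removal of trends in transcript length was added after the data were seen. Exact permutation tests used scipy 1.17.1. All 10 members are described. Of each list, the genes with the lowest p, up to 4, were named; XPC, SPPL2B, BAG4 and genes that overlap a named gene were added after their values were seen. A rule to name genes most like the called member with the largest change named none, since no member was called. The members and lists were chosen with earlier results of these data known. The result for 1 cell type marker is not reported here.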

Additional observations from a re-analysis of the deposited data

How the results depend on the processing

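Over the 20 alternative settings, 0 of 10 LSM genes were called in either direction except as follows. With library totals 2 were lower (LSM5 -0.26 and LSM11 -0.24), without control replicate 2 there was 1 lower (LSM5 -0.29), as there was without control replicate 2 and LOC550643 siRNA replicate 3 together (1, LSM5 -0.29), and with trends in transcript length removed, chosen after the data were seen, 2 were higher (LSM1 0.26 and LSM4 0.15), where 3622 of all genes were called higher and 3302 lower. With 1 library left out, members called lower ran from 0 to 1, genes called higher from 2065 to 2654 (2844 with all libraries) and lower from 2213 to 2852 (2945), and genes of the related and partner lists called higher from 13 to 17 (18) and lower from 6 to 10 (10). At an adjusted p under 0.01, 1775 genes were higher, 1744 lower and 5 list genes lower. Library totals gave 2081 higher and 3979 lower, against 2844 and 2945 with TMM, and the median of all genes moved by -0.08. Signs turned with library totals for LSM3 (-0.0164) and LSM12 (-0.0596), with the upper quartile for LSM12 (-0.012), and with length trends removed for LSM2 (0.0189), LSM7 (0.0325) and LSM8 (0.0939). With libraries left out, LSM2 ran from -0.0901 to 0.044, LSM7 from -0.164 to 0.0496 and LSM12 from -0.0165 to 0.0708. The causes of these turns were not tested. Correlations of deviations from the group means were 0.06, -0.28 and -0.12 between same-numbered libraries and ran from -0.14 to 0.25 between the others. With 3 libraries per group, these values cannot decide whether replicate numbers pair the samples. With the number as a block, 2689 genes were higher and 2708 lower, 0 LSM genes were called, LSM8 was at -0.09 (adjusted p = 0.359), and among named genes the call changed for SNRPG (adjusted p = 0.00795). Depth limits LOC550643 siRNA replicate 3 most.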
